A study of Rattus norvegicus with 9 samples.

Results

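Complement and coagulation genes of the rat liver were examined as a module of 41 genes, chosen by name from the plasma protease cascades: 22 of clotting, its inhibitors and fibrinolysis and 19 of complement. A gene entered by the RefSeq accession of its array probes. Of the 41 genes, 35 had at least 1 probe (46 probes in all), and 34 were tested, out of 9604 tested genes with a name in the whole data set. F5, F11, F13b, C5, C8b and C8g were matched to no probe and were not analysed here. Plat, tissue plasminogen activator, had a probe that was well above background on none of the 9 arrays and was not tested. The chosen probes of the 34 tested genes were well above background on all 9 arrays, so none of them passed the filter through 1 group alone.

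Expression was read in the livers of 9 male Wistar rats, taken at 24 h, with a one-colour Agilent whole-genome array for each rat. The control group was 3 rats with neither irradiation nor drug. The TBI group was 3 rats exposed to 6.5 Gy total-body irradiation from a cobalt source, and the labels name no vehicle for them. The HSC + TBI group was 3 rats given Hong Shan Capsule (HSC), a Chinese herbal preparation dissolved in water, into the stomach on each of 3 days before the same 6.5 Gy. The sample labels give the HSC dose as 30 mg/kg/day and the series' design text as 10 g/kg/day. The question of the study was which changes of liver expression after TBI were different in rats pretreated with HSC. HSC without irradiation was not analysed here, so the drug's own action on these genes cannot be told apart from its action on irradiated liver. Ages of the rats were not given in the sources used here.

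Most plasma proteins of both cascades are made by hepatocytes and secreted as inactive precursors. In clotting, tissue factor with factor VII, or the contact system of factor XII, prekallikrein and high molecular weight kininogen, starts a chain of proteases that ends in thrombin and fibrin, and plasmin then dissolves the fibrin. Complement is started by the classical, lectin and alternative pathways, which meet at C3 and end in the membrane attack complex, and soluble regulators such as C4b-binding protein and factor I limit it. Several members of both cascades are acute phase proteins, whose liver expression moves with inflammation.

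Between 56.6% and 59.3% of probes were well above background in controls, between 63.6% and 69.5% in TBI rats and between 58.7% and 60.5% in HSC + TBI rats, and no spot was saturated. The 9 arrays lay on 4 slides, none of which held rats of more than 1 group, so slide and group cannot be told apart. Of 9 tested p53 target genes, 9 were called higher in TBI rats and 8 in HSC + TBI rats, against control. Cdkn1a, the p53-induced inhibitor of the cell cycle, rose by 5.37 and 4.88 on the log2 scale in these groups. None of the 8 hepatocyte markers was called in any comparison. The arrays measured whole liver, in which fewer cells of a type and less RNA per cell cannot be told apart.

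At 24 h after TBI, most of the module stood near its control level, and 3 genes passed the test. Kng1 (kininogen) and Cfd (complement factor D) rose 3.35-fold and 2.20-fold, and Klkb1 (plasma prekallikrein) fell to a level 2.58-fold lower. Values are log2 of the quantile-normalized signal of a probe, fold changes are differences of group means on that scale, and signals are not compared between probes. A call needed a change of at least 1.5-fold and, by limma over all tested probes, a p under 0.05 after Benjamini-Hochberg adjustment. By this rule 3 of the 34 members (8.82%) were called between TBI and control, where 7.79% of all 9604 tested genes were called (3.87% higher and 3.92% lower). An unadjusted p under 0.05 was met by 7 members (20.6%), the other four being C4bpa, C4bpb, Cfi and C9, against 26.1% of all genes. Without the minimum fold, 5 members (14.7%) had an adjusted p under 0.05, against 8.76% of all genes, the other two being C4bpa and C4bpb, the chains of C4b-binding protein. The median log2 difference over the 34 members was -0.02, with 15 above 0 and 19 below, and that over all tested genes was 0.01. The median size of the difference, sign ignored, was 0.18 for the members and 0.23 for all genes. In HSC + TBI rats against control, 0 of 34 members were called by limma, where 3.88% of all genes were called, and 5 members had an unadjusted p under 0.05. In HSC + TBI against TBI, 0 of 34 members were called, where 0.791% of all genes were called, and again 5 members had an unadjusted p under 0.05. These comparisons share the control rats or the TBI rats. An unadjusted p under 0.05 was met by 21.9% of all genes in HSC + TBI against control and by 15% in HSC + TBI against TBI. By the F-test over the 3 groups, Kng1 (adjusted p = 0.0413) and C4bpb (adjusted p = 0.0400) were the 2 members that passed, where 7.51% of all genes passed.

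**Figure D1:**
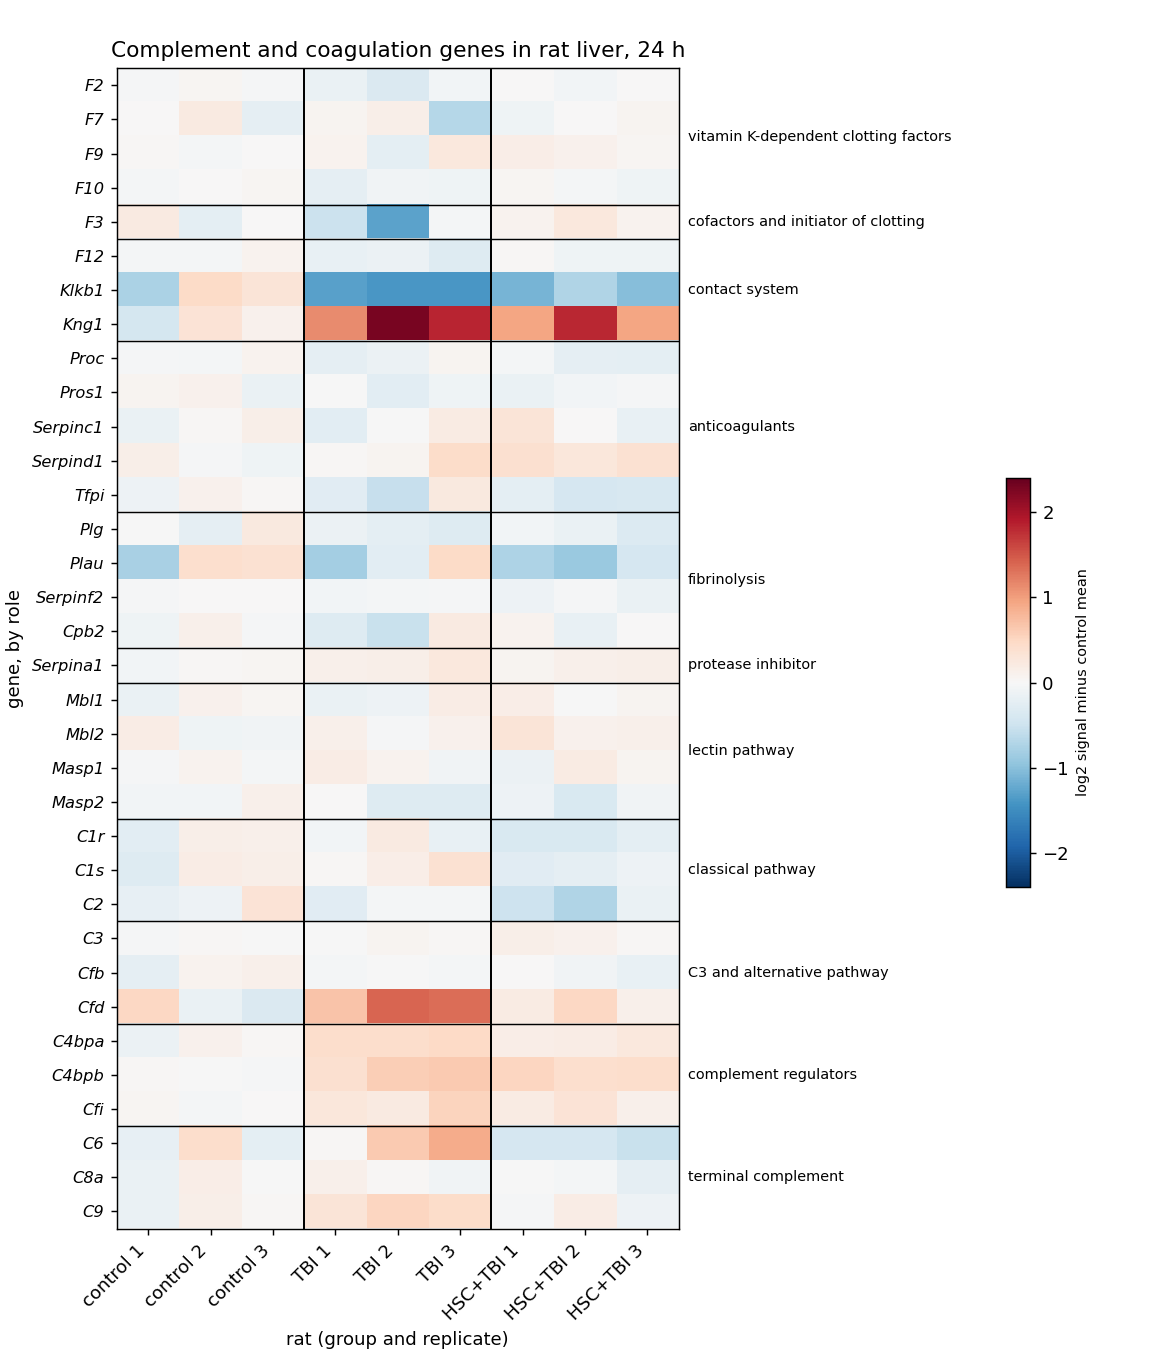
Colour shows the log2 signal of each of the 34 tested genes (rows, grouped by role) in each rat (columns) minus the mean of the 3 controls, from blue (lower) to red (higher). Most rows are pale in all 9 rats, and Kng1, Klkb1 and Cfd, the 3 called genes, have strong colours in all or most TBI rats. The 3 complement regulators and C9 are redder in every TBI rat than in every control.

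The largest differences between TBI rats and controls were those of Kng1 and Klkb1, both listed here under the contact system. They had opposite signs. Kng1 (gene ID 288001, formerly Kng1l1) encodes a kininogen. Kininogens are the precursors of kinins such as bradykinin, and a high molecular weight form of them serves contact activation, while the T-kininogens of the rat are acute phase proteins. Which form this gene makes was not examined, so its place in the contact system is uncertain. Its log2 signals were 14.84, 15.58 and 15.36 in controls, 16.39, 17.54 and 17.09 in TBI rats and 16.20, 17.06 and 16.20 in HSC + TBI rats. Every irradiated rat, with or without HSC, lay above every control, and the irradiated groups overlapped. The mean was 15.26 ± 0.38 in controls, 17.01 ± 0.58 after TBI and 16.49 ± 0.50 after HSC and TBI (SD, n = 3 each). TBI against control differed by 1.75 (SE 0.35, 95% interval 0.95 to 2.54, limma adjusted p = 0.0205), and the call was lost without control 1, control 3 or TBI 2, with differences of 1.48 to 2.05 over all 9 rats left out in turn. HSC + TBI against control differed by 1.23 (95% interval 0.43 to 2.02, limma adjusted p = 0.0993), which did not pass. HSC + TBI against TBI differed by -0.52, with an interval from -1.31 to 0.28 that holds both no difference and more than 1.5-fold.

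The rat carries several kininogen genes that sit side by side, and 2 of them, Kng2 and Kng2l1, list Kng1 as a synonym in RefSeq, so which of them the name in the module stands for is uncertain. If it stood for Kng2l1, the members called in TBI rats would be 2, Klkb1 and Cfd. No other protein-coding gene lies between Kng1 and Kng2 in RefSeq, or between Kng2 and Kng2l1. Kng2 (gene ID 24903), which is not counted as a member, had log2 signals of 15.11, 15.78 and 15.65 in controls, 16.60, 17.49 and 17.11 in TBI rats and 16.48, 17.19 and 16.38 in HSC + TBI rats. As with Kng1, all irradiated rats lay above all controls. Kng2 rose by 1.55 in TBI rats (SE 0.30, limma adjusted p = 0.0183) and differed by 1.17 in HSC + TBI rats (adjusted p = 0.0767), against control. Kng2l1 (gene ID 25087) ranged from 14.03 to 14.16 in controls, from 14.17 to 14.45 in TBI rats and from 14.13 to 14.40 in HSC + TBI rats, and its difference of 0.18 in TBI rats did not pass (adjusted p = 0.410). The probes of Kng1 and Kng2 may bind each other's transcripts, so their values are not independent, and the sequences of the probes were not examined. The start regions of Kng1 and Kng2 are shown because they share a long identical stretch. Each is a 300-base window that spans the RefSeq start of the gene on build GRCr8, 5′ to 3′ on the gene's own strand, at chr11:91340099-91340398 (minus strand) for Kng1 and chr11:91418220-91418519 (plus strand) for Kng2. Capitals mark the longest run that both windows hold, 87 bases, which begins at base 1 of the Kng1 window and at base 156 of the Kng2 window.
Kng1: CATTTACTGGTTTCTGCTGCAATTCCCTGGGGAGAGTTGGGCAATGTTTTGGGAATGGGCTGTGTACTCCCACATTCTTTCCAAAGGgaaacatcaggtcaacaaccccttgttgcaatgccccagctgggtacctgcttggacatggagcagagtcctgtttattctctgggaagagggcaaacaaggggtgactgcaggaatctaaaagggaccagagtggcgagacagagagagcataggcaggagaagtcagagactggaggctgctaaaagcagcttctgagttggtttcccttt
Kng2: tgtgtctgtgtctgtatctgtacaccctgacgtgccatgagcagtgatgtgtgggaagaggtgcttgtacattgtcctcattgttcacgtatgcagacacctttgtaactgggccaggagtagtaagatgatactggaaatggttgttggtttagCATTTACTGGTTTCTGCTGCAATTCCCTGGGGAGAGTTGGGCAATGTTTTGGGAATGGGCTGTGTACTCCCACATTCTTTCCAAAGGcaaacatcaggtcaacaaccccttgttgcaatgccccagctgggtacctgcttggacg

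Klkb1 (gene ID 25048) encodes prekallikrein, the protease precursor that circulates bound to kininogen and releases bradykinin from it once active. Its log2 signals were 12.52, 13.75 and 13.59 in controls, 11.97, 11.89 and 11.90 in TBI rats and 12.17, 12.56 and 12.26 in HSC + TBI rats. The 3 TBI rats lay close together below every control, and the HSC + TBI rats lay above the TBI rats and, for HSC + TBI 2 alone, above the lowest control. The means were 13.29 ± 0.67, 11.92 ± 0.05 and 12.33 ± 0.21 (SD, n = 3) in control, TBI and HSC + TBI rats. In TBI rats Klkb1 fell by 1.37 (SE 0.29, 95% interval -2.03 to -0.70, limma adjusted p = 0.0262), and leaving out control 2, control 3, TBI 1 or TBI 2 ended the call, with differences of -1.75 to -1.14 over the rats left out in turn. HSC + TBI against control differed by -0.96 (adjusted p = 0.119) and passed without control 1, the lowest control, with a difference of -1.34 (adjusted p = 0.00470). HSC + TBI against TBI differed by 0.41 (95% interval -0.25 to 1.07, adjusted p = 0.526). The Klkb1 window at chr16:53690976-53691275 (plus strand, GRCr8) is shown because Klkb1 was the 1 member called lower. Capitals mark its matches to TTGCNNAA, a C/EBP-type motif, and to CCAAT.
Klkb1: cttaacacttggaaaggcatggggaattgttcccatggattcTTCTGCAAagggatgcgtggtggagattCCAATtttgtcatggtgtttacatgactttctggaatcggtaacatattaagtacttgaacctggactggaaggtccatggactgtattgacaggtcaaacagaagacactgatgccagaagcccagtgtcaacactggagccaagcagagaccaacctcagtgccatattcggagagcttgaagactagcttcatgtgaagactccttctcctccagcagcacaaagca

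F12, factor XII of the contact system, had log2 signals of 15.72, 15.72 and 15.84 in controls, 15.58, 15.62 and 15.44 in TBI rats and 15.78, 15.67 and 15.67 in HSC + TBI rats. All TBI rats lay below all other rats, by a small margin. The difference of -0.22 in TBI rats against control did not pass (limma adjusted p = 0.242), and a second probe of F12 gave -0.43, which was not called either. F11, the remaining contact factor of the module, lies next to Klkb1 in RefSeq and had no matched probe.

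Cfd (gene ID 54249) encodes factor D, the protease that cleaves factor B and starts the alternative pathway, and it is made mainly by fat cells. Its log2 signals were 11.51, 10.85 and 10.67 in controls, 11.70, 12.40 and 12.35 in TBI rats and 11.20, 11.50 and 11.13 in HSC + TBI rats. The TBI rats lay above all other rats, and the HSC + TBI rats lay within the range of the controls. The means were 11.01 ± 0.44, 12.15 ± 0.39 and 11.28 ± 0.20 (SD, n = 3) in control, TBI and HSC + TBI rats. In TBI rats Cfd rose by 1.14 (SE 0.26, 95% interval 0.54 to 1.74, limma adjusted p = 0.0347). This call was the least stable of the 3: it was lost without control 2, control 3, TBI 2, TBI 3, HSC + TBI 1 or HSC + TBI 3, with adjusted p up to 0.115 and differences of 0.97 to 1.39, and it was lost with no filter on dim probes (adjusted p = 0.0565). HSC + TBI against control differed by 0.27 (95% interval -0.33 to 0.86, adjusted p = 0.628). HSC + TBI against TBI differed by -0.87 (95% interval -1.47 to -0.27), which by limma had an adjusted p of 0.166 and an unadjusted p of 0.00948. Of 7 fat cell marker genes, 5 had a probe, and Adipoq, Lep and Retn were well above background on none of the 9 arrays. The other two were not called. Some genes of macrophages and other leukocytes differed in the same rats. Itgb2 rose by 0.87 in TBI rats against control and fell by 1.08 in HSC + TBI against TBI rats. Adgre1, a macrophage marker, differed by 1.04 and -1.19, which did not pass (limma adjusted p = 0.159 and 0.211). It had the largest rise in TBI rats of the 9 tested markers of liver macrophages, and none of the 9 was called. The medians of these markers in the same comparisons were 0.27 and -0.96. Those of the tested neutrophil markers were -0.08 and -0.81, and those of the tested lymphocyte markers -0.79 and -0.14. The part of these cells in the values of Cfd was not tested.

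The soluble regulators of complement stood above control in every TBI rat. C4bpa and C4bpb encode the alpha and beta chains of C4b-binding protein, a cofactor for the breakdown of C4b, and Cfi encodes factor I, the protease that cleaves C4b and C3b. C4bpb (gene ID 24236) had log2 signals of 14.73, 14.70 and 14.68 in controls, 15.08, 15.30 and 15.34 in TBI rats and 15.23, 15.10 and 15.13 in HSC + TBI rats. The controls lay within 0.05 of each other and every irradiated rat lay above them. C4bpb differed by 0.53 in TBI rats (SE 0.11, 95% interval 0.28 to 0.78, limma adjusted p = 0.0232), a 1.45-fold change just short of the minimum of 1.5-fold, and by 0.45 in HSC + TBI rats (95% interval 0.20 to 0.70, adjusted p = 0.0678), against control. Without TBI 1 the difference in TBI rats was 0.61, and with the 75th percentile scaling 0.60, and C4bpb was called in both cases. Between the irradiated groups it differed by -0.08, with an interval from -0.34 to 0.17 that leaves out a 1.5-fold change. C4bpa (gene ID 24235) had log2 signals of 15.19, 15.45 and 15.37 in controls, 15.75, 15.75 and 15.81 in TBI rats and 15.50, 15.52 and 15.59 in HSC + TBI rats. The groups followed the order control, HSC + TBI, TBI without overlap. C4bpa differed by 0.43 in TBI rats (SE 0.11, adjusted p = 0.0444, 1.35-fold) and by 0.20 in HSC + TBI rats (adjusted p = 0.346), against control, and by -0.23 between HSC + TBI and TBI rats (adjusted p = 0.331). Cfi (gene ID 79126) had log2 signals of 16.73, 16.65 and 16.69 in controls, 16.95, 16.90 and 17.21 in TBI rats and 16.89, 17.02 and 16.80 in HSC + TBI rats. All irradiated rats again lay above all controls, but the differences of 0.34 in TBI rats and 0.22 in HSC + TBI rats did not pass (limma adjusted p = 0.133 and 0.374).

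**Figure D2:**
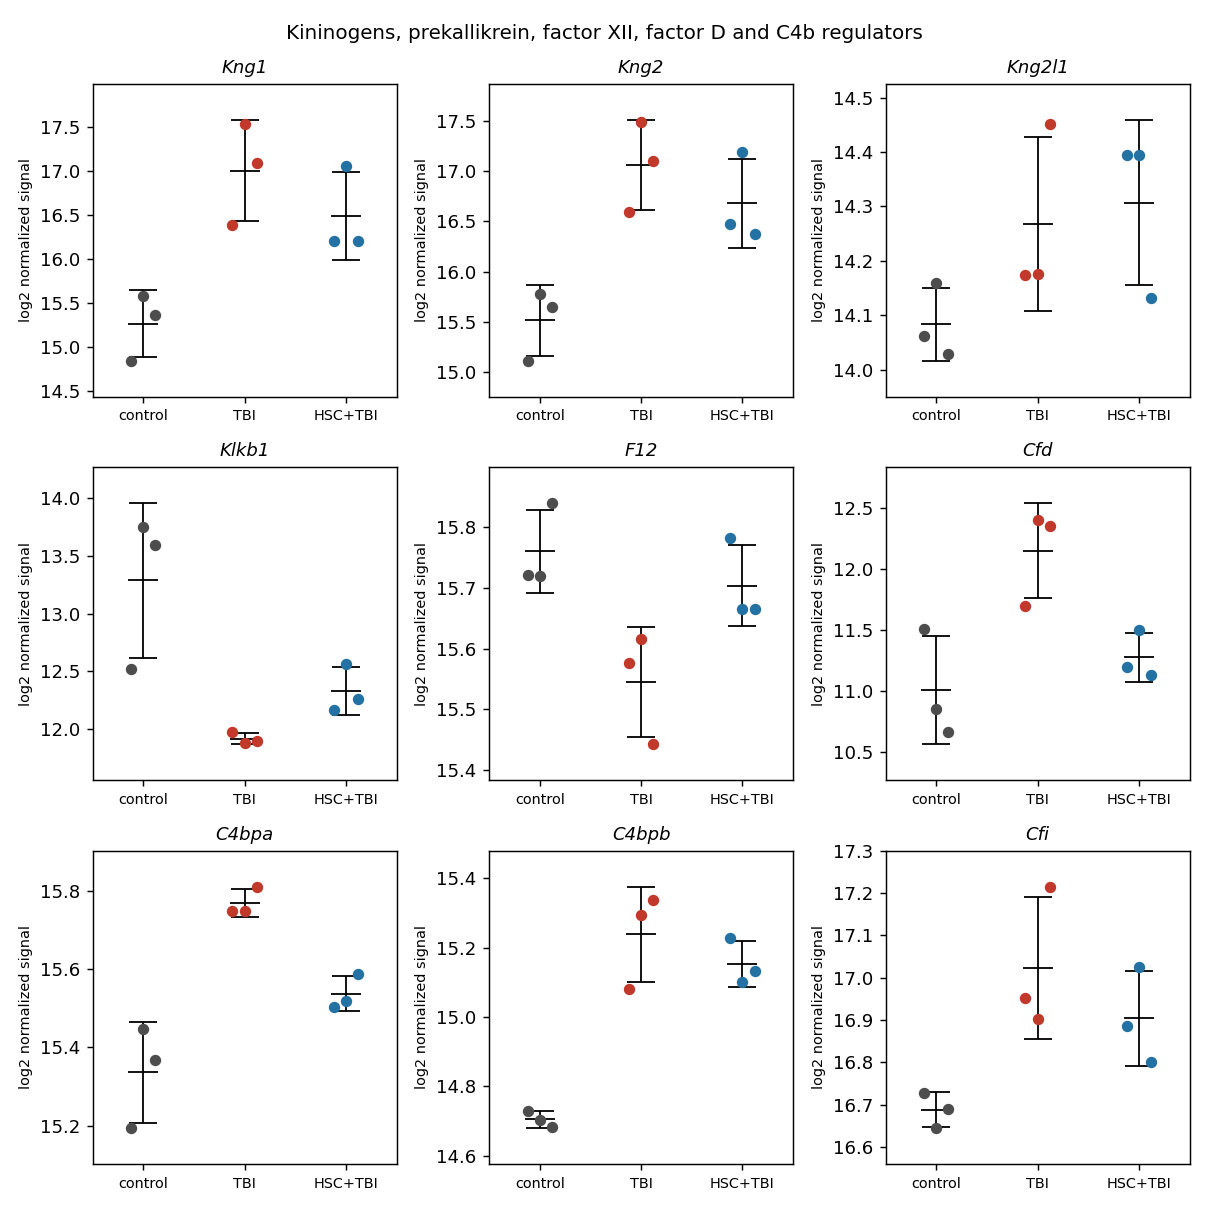
Points are the log2 normalized signals of single rats, and bars give the mean and SD of the 3 rats of each group, each panel with an axis of its own that does not start at 0. Kng1, Kng2, C4bpa, C4bpb and Cfi lie higher in all irradiated rats than in all controls, Klkb1 lies lower in all TBI rats, and Cfd lies higher in TBI rats alone.

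C4bpa and C4bpb lie near each other on chromosome 13 of GRCr8, with 1 other protein-coding gene between them, and their windows are shown because both chains passed an adjusted p of 0.05 in TBI rats. The C4bpa window is at chr13:44663422-44663721 and the C4bpb window at chr13:44683732-44684031, both on the minus strand. Capitals mark matches to TTGCNNAA (C/EBP type), GTTAAT (the core of an HNF1 site) or TTCNNNGAA (STAT type), each searched on both strands.
C4bpa: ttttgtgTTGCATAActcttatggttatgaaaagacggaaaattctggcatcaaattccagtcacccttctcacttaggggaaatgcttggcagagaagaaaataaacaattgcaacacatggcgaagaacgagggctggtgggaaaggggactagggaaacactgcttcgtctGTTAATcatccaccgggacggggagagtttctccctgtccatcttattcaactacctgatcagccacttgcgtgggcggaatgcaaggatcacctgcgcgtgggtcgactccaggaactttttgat
C4bpb: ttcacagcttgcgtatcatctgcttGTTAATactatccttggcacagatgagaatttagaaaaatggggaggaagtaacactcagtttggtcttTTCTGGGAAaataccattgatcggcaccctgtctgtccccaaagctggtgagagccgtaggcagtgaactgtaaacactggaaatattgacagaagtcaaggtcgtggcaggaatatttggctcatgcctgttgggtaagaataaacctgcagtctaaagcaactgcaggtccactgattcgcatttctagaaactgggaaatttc
The longest run the windows share is 8 bases, against 87 for Kng1 and Kng2. Of the 41 genes, 31 had a window in RefSeq. TTGCNNAA was present in 10 of them (32.3%), against 10.6% of all 33469 windows, and GTTAAT in 9 (29%), against 7.45%. TTCNNNGAA was present in 4 (12.9%), against 8.87%, CCAAT in 10 (32.3%), against 37.5%, and TATAAA in 1 (3.23%), against 14.2%. TTGCNNAA was in the windows of Kng1, Kng2, Kng2l1, Klkb1 and C4bpa, so it was present in genes that rose, in the gene that fell and in a kininogen that did not pass. These matches are letters in a window and no measure of binding.

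The terminal components, which build the membrane attack complex, held the member with the largest difference between the irradiated groups. C6 (gene ID 24237) had log2 signals of 12.49, 13.09 and 12.45 in controls, 12.70, 13.30 and 13.56 in TBI rats and 12.27, 12.27 and 12.14 in HSC + TBI rats. The HSC + TBI rats lay below every other rat. HSC + TBI against TBI differed by -0.96 (SE 0.24, 95% interval -1.52 to -0.41), which by limma had an adjusted p of 0.120 and was not called, but was called without TBI 1, at -1.20 (adjusted p = 0.0273). TBI against control differed by 0.51 (adjusted p = 0.231) and HSC + TBI against control by -0.45 (adjusted p = 0.351). C9 (gene ID 117512) had log2 signals of 15.60, 15.90 and 15.79 in controls, 16.08, 16.27 and 16.21 in TBI rats and 15.74, 15.94 and 15.65 in HSC + TBI rats. The TBI rats lay above all other rats, and the HSC + TBI rats lay in and around the control range. C9 differed by 0.42 in TBI rats against control (limma adjusted p = 0.0859), by 0.01 in HSC + TBI rats against control and by -0.41 between HSC + TBI and TBI rats (adjusted p = 0.184), or by -0.18 with the 75th percentile scaling. C8a, the alpha chain of C8, had differences between -0.11 and 0.02 in the 3 comparisons.

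In the classical pathway, C1r and C1s, the paired proteases of the C1 complex, and C2, the protease precursor that C1s cleaves, were not called in any comparison. C1s (gene ID 192262) had log2 signals of 13.89, 14.39 and 14.35 in controls, 14.24, 14.36 and 14.58 in TBI rats and 13.93, 13.99 and 14.10 in HSC + TBI rats. The irradiated groups did not overlap. The range of the controls held all HSC + TBI rats, and TBI 3 lay above every control. HSC + TBI against TBI differed by -0.39 (95% interval -0.75 to -0.02, limma adjusted p = 0.284), and the second probe of C1s gave -0.36. C1r (gene ID 312705) had log2 signals of 14.71, 15.11 and 15.08 in controls, 14.91, 15.19 and 14.79 in TBI rats and 14.60, 14.61 and 14.74 in HSC + TBI rats. It differed by -0.31 between HSC + TBI and TBI rats (adjusted p = 0.360), again with no overlap, or by -0.17 with the 75th percentile scaling and -0.20 without TBI 2. C2 (gene ID 24231) had log2 signals of 12.01, 12.08 and 12.52 in controls, 11.93, 12.15 and 12.16 in TBI rats and 11.71, 11.49 and 12.03 in HSC + TBI rats. It differed by -0.46 in HSC + TBI rats against control (95% interval -0.89 to -0.03, adjusted p = 0.222), and the groups overlapped.

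Taken as a sum, markers of Kupffer cells, the macrophages of the liver, which also make classical pathway components, were low in the same HSC + TBI rats. The signals of the 9 tested Kupffer markers, summed and put on the log2 scale, were 16.47 to 17.12 in controls, 16.54 to 17.44 in TBI rats and 16.03 to 16.14 in HSC + TBI rats. None of the 9 was called, 3 of them are the C1q chain genes, and the median log2 difference of the 9 was -0.96 between HSC + TBI and TBI rats and -0.63 between HSC + TBI rats and controls. Single markers differed from control by -0.75 to -0.14 in HSC + TBI rats. The smallest difference was that of Adgre1, for which these groups overlapped. The summed neutrophil markers (5 summed, 3 of them tested, with Mmp8 above background on no array) were 8.55 to 9.27, 8.58 to 9.61 and 7.88 to 8.26, and the summed platelet markers (4 tested of 5) 8.71 to 8.96, 8.79 to 9.67 and 8.34 to 8.59, in control, TBI and HSC + TBI rats. Both sums were lowest in HSC + TBI rats, but the brightest probes weigh most in such sums. Median differences from control were -0.74 for tested neutrophil and -0.24 for platelet markers. Not every marker was lower. Ppbp, a platelet marker, differed by 0.26 between HSC + TBI rats and controls. Ngp, a neutrophil marker, differed by 0.22 between HSC + TBI and TBI rats. The summed hepatocyte markers were 20.18 to 20.24, 20.07 to 20.21 and 20.12 to 20.19. Of the markers of stellate, endothelial, bile duct and lymphoid cells, Lrat and Cd79b were called, both lower in TBI rats than in controls. In HSC + TBI rats against control, Cd79b was called lower too. Cd79b, a B cell marker, was above background on 3 of the 9 arrays and highest in controls, so that it passed the filter through the group where it was high. The part of these cells in the values of C6, C9, C1r, C1s and C2 was not tested.

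**Figure D3:**
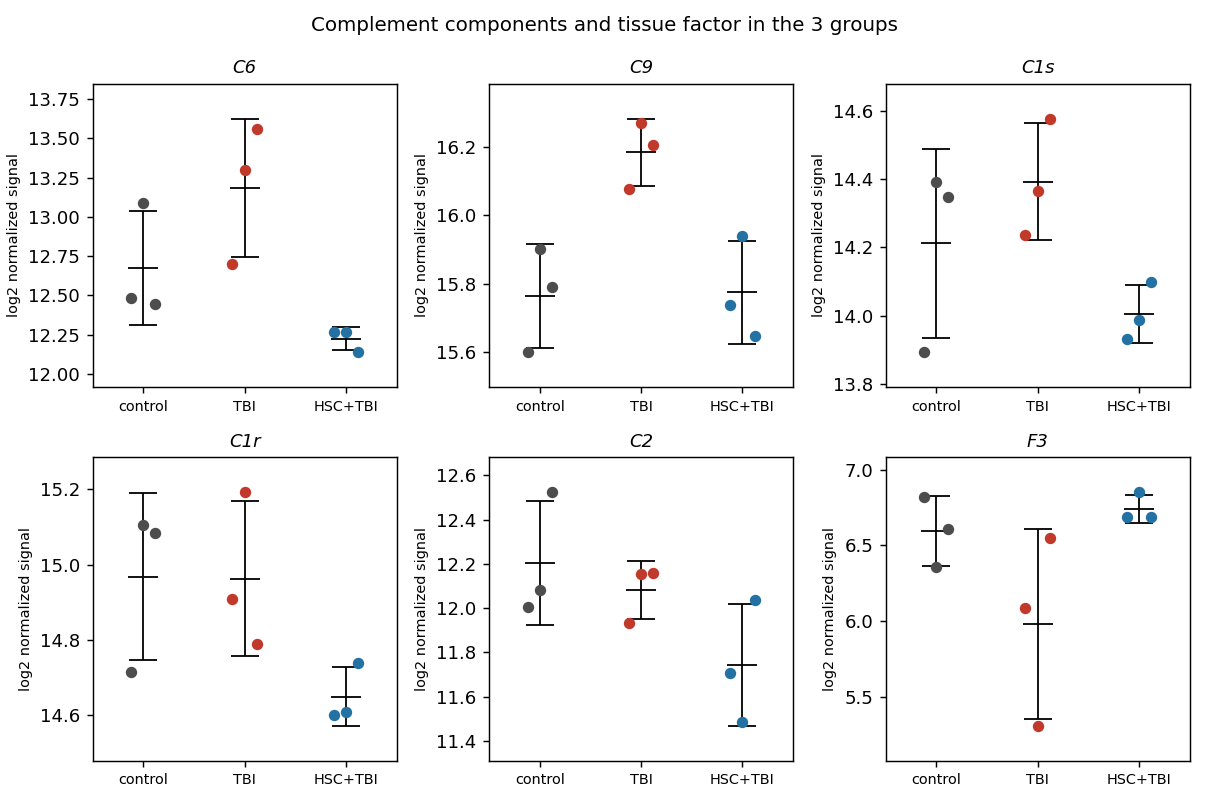
Points are the log2 normalized signals of single rats, and bars give the mean and SD of the 3 rats of each group, each panel with an axis of its own that does not start at 0. C6, C9, C1s and C1r lie lower in all HSC + TBI rats than in all TBI rats, and F3 lies higher; none of these differences was called.

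The hubs of complement hardly differed. C3, on which all 3 pathways meet, had log2 signals of 17.94 to 18.00 in controls, 17.96 to 18.04 in TBI rats and 18.00 to 18.10 in HSC + TBI rats. Its intervals were -0.19 to 0.25 for TBI against control, -0.13 to 0.31 for HSC + TBI against control and -0.16 to 0.28 for HSC + TBI against TBI, all inside 1.5-fold either way. C3 was the brightest tested member, and quantile normalization sets values by rank. Control 3 and TBI 1 thus both stood at 17.9622. Changes of so bright a probe may be held down by this, which was not examined for C3. The same limit applies to Serpina1 and F2, the next brightest members, and to the fibrinogen genes. Cfb, factor B, the substrate of factor D, ranged from 15.37 to 15.72 in controls, from 15.55 to 15.59 in TBI rats and from 15.42 to 15.59 in HSC + TBI rats, and its differences lay between -0.08 and -0.03. In the lectin pathway, the mannose-binding lectins Mbl1 and Mbl2 and the proteases Masp1 and Masp2 had differences between -0.20 and 0.18 in the 3 comparisons, with adjusted p of 0.392 or more. The 3 probes of Masp2 differed in sign, from -0.20 to 0.21 in TBI rats and from -0.20 to 0.31 in HSC + TBI rats against control, and one of them lay higher in every HSC + TBI rat than in every control where the chosen probe lay lower. Those of Masp1 ranged from -0.25 to 0.06 in TBI rats.

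Among the clotting proteases, F2 (prothrombin), F7, F9 and F10, the vitamin K-dependent factors VII, IX and X with prothrombin, had differences of -0.19 to 0.03 in TBI rats and -0.03 to 0.10 in HSC + TBI rats, against control. F2 had log2 signals of 17.42, 17.49 and 17.41 in controls, 17.27, 17.10 and 17.37 in TBI rats and 17.45, 17.37 and 17.45 in HSC + TBI rats. The TBI rats lay just below the controls, by -0.19 (95% interval -0.44 to 0.06, limma adjusted p = 0.325), which leaves out a 1.5-fold change. F10, the protease that cleaves prothrombin, was also lower in every TBI rat than in every control, by -0.13 (adjusted p = 0.441). Of the 6 genes of the vitamin K cycle and of factor secretion that were tested beside them, none was called. Vkorc1, the reductase that recycles vitamin K, had an adjusted p of 0.0274 in TBI rats at -0.53, less than 1.5-fold.

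F3 (gene ID 25584), tissue factor, the cell surface starter of clotting, had log2 signals of 6.82, 6.36 and 6.61 in controls, 6.09, 5.31 and 6.55 in TBI rats and 6.69, 6.85 and 6.68 in HSC + TBI rats. The TBI rats were spread widely, with TBI 2 lowest, and all HSC + TBI rats lay above all TBI rats. F3 differed by -0.61 in TBI rats against control (limma adjusted p = 0.215), by 0.14 in HSC + TBI rats against control (adjusted p = 0.827) and by 0.76 between HSC + TBI and TBI rats (95% interval 0.12 to 1.40, adjusted p = 0.236). Its values in TBI rats rested on 1 rat: without TBI 2 the difference from control was -0.28 and that between the irradiated groups 0.42. With normexp background correction the same differences were -0.22 and 0.32.

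The anticoagulants were not called in any comparison. They are Proc (protein C), Pros1 (protein S), Serpinc1 (antithrombin), Serpind1 (heparin cofactor II) and Tfpi (tissue factor pathway inhibitor), with differences of -0.20 to 0.18 in TBI rats and -0.34 to 0.34 in HSC + TBI rats, against control. Serpind1 had log2 signals of 14.15, 13.97 and 13.90 in controls, 14.04, 14.07 and 14.45 in TBI rats and 14.39, 14.28 and 14.37 in HSC + TBI rats. All HSC + TBI rats lay above all controls, by 0.34 (95% interval 0.02 to 0.66, limma adjusted p = 0.226). Tfpi had log2 signals of 7.86, 8.08 and 8.01 in controls, 7.71, 7.44 and 8.21 in TBI rats and 7.75, 7.58 and 7.59 in HSC + TBI rats. All HSC + TBI rats lay below all controls, by -0.34 (adjusted p = 0.361). The second, dimmer probe of Tfpi gave 0.05 in that comparison and 0.35 in TBI rats, where the chosen probe gave -0.20.

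In fibrinolysis, Plg (plasminogen), Serpinf2 (its inhibitor alpha-2-antiplasmin) and Cpb2 (a carboxypeptidase that protects fibrin) had differences of -0.23 to 0.18 in the 3 comparisons, and none was called. Plg had log2 signals of 12.85, 12.66 and 13.10 in controls, 12.72, 12.64 and 12.56 in TBI rats and 12.81, 12.70 and 12.54 in HSC + TBI rats. The groups overlapped. Plau, urokinase, had log2 signals of 4.76, 5.94 and 5.90 in controls, 4.72, 5.28 and 6.0 in TBI rats and 4.78, 4.64 and 5.12 in HSC + TBI rats. Its rats were spread so widely that a difference of -0.68 between HSC + TBI rats and controls had an interval from -1.57 to 0.20. Serpina1, alpha-1-antitrypsin, an acute phase protease inhibitor, ranged from 17.66 to 17.77 in controls, from 17.85 to 17.98 in TBI rats and from 17.80 to 17.88 in HSC + TBI rats. All irradiated rats lay above all controls, by 0.17 and 0.11, which did not pass (adjusted p = 0.319 and 0.584).

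**Figure D4:**
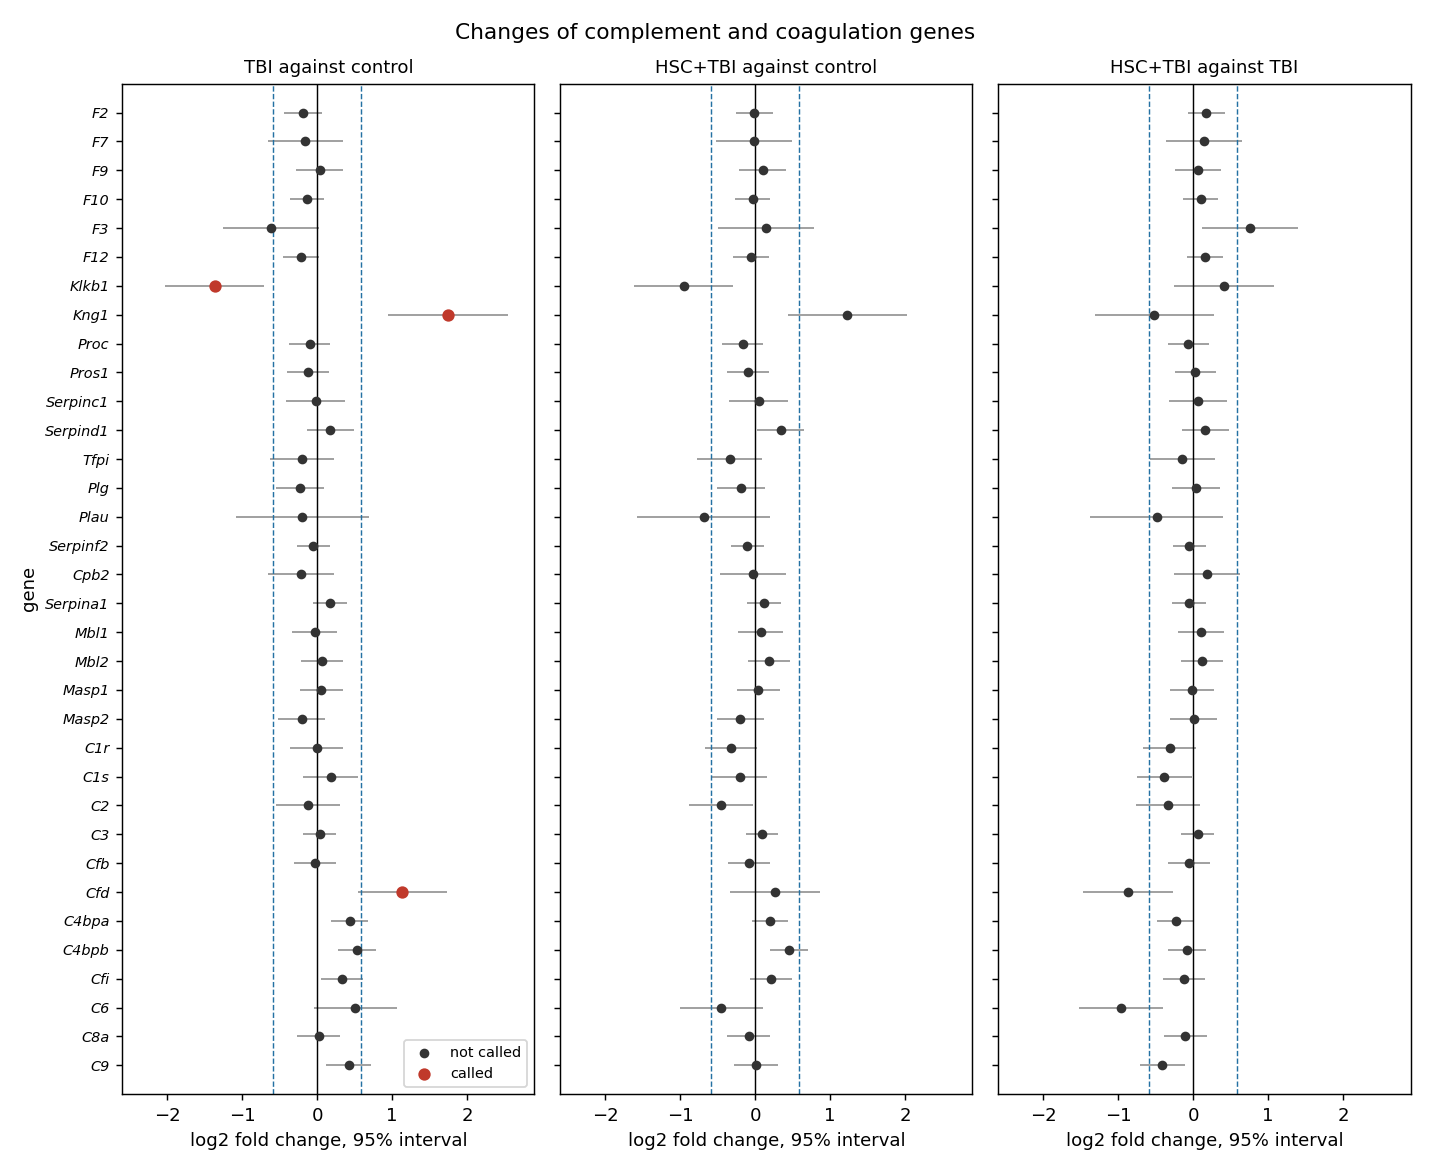
Points are log2 fold changes of the 34 tested genes in the 3 comparisons, with 95% intervals from limma, and dashed lines mark 1.5-fold either way. The 3 called genes, Kng1, Klkb1 and Cfd, are red in the panel of TBI against control, and most other intervals lie between the dashed lines.

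Over the module, the groups did not overlap for 12 of 34 members (35.3%) between TBI and control, against 29.9% of all tested genes. Of these, 7 (20.6%) were higher in TBI rats, Kng1, Serpina1, Cfd, C4bpa, C4bpb, Cfi and C9, against 14.3% of all genes. The 5 (14.7%) that were lower were F2, F10, F12, Klkb1 and Serpinf2, against 15.7%. Between HSC + TBI and control it was 11 members (32.4%), against 34.5% of all genes. The 7 higher ones (17.6% of all genes were higher) were F9, Kng1, Serpind1, Serpina1, C4bpa, C4bpb and Cfi, and the 4 lower ones (16.9% of all genes) Tfpi, Serpinf2, Masp2 (by its chosen probe) and C6. Between HSC + TBI and TBI it was 9 members (26.5%), against 21.3% of all genes. These were 3 higher in HSC + TBI rats, F3, F12 and Klkb1 (10.3% of all genes were higher), and 6 lower, C1r, C1s, Cfd, C4bpa, C6 and C9 (11% of all genes). The 95% interval lay inside 1.5-fold either way for 21 members (61.8%) in TBI against control, where 43.9% of all genes did so, for 23 members (67.6%) in HSC + TBI against control, where 47% did, and for 22 members (64.7%) in HSC + TBI against TBI, where 52.1% did. The median SD within groups was 0.15 for the members and 0.20 for all tested genes.

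Between TBI rats and either other group the clotting and complement genes had medians of opposite sign, all small. Of 18 tested clotting genes, 14 lay below control in TBI rats (median -0.14), and of 16 tested complement genes, 11 lay above (median 0.06). Between HSC + TBI and TBI rats, 12 of the 18 clotting genes lay higher (median 0.06) and 12 of the 16 complement genes lower (median -0.11). Of all tested genes, 50.6% lay above 0 in TBI rats against control and 53.9% in HSC + TBI against TBI rats. With a 75th percentile scaling in place of quantiles these counts moved. Between HSC + TBI and TBI rats the complement genes then turned, with 9 of 16 higher and a median of 0.03, and the clotting genes stood at 0.18. Between HSC + TBI rats and controls the clotting genes turned too, from 6 of 18 higher (median -0.03) to 14 of 18 (median 0.11), and the complement genes went from 9 to 11 of 16 higher (medians 0.03 and 0.21). In TBI rats against control the medians were -0.10 for clotting and 0.12 for complement genes.

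Of the other genes of the clotting and fibrinolytic system, 14 of 22 were tested, and Kng2 was the 1 called gene, in TBI rats. The 3 fibrinogen chain genes Fga, Fgb and Fgg differed from control by 0.04, 0.07 and 0.15 in TBI rats. Of 25 other complement genes, 18 were tested, and in TBI rats Itgb2, the beta chain of complement receptors 3 and 4, rose by 0.87 (limma adjusted p = 0.0233), while Fcnb, ficolin B, fell by 1.49 (adjusted p = 0.00556) and Cd46, a membrane cofactor, fell by 0.97 (adjusted p = 0.0389). Cd46 was dim, at 4.36 to 5.10 in controls and 3.43 to 3.95 in TBI rats, and no other background correction is given for it here. Both Fcnb, at -2.01, in HSC + TBI rats against control and Itgb2, at -1.08, in HSC + TBI against TBI (adjusted p = 0.0435) were called in 1 further comparison each. Itgb2 had log2 signals of 9.06, 9.32 and 9.07 in controls, 9.66, 10.27 and 10.12 in TBI rats and 8.81, 9.14 and 8.86 in HSC + TBI rats. The TBI rats lay above all other rats. C1qa, C1qb and C1qc, the C1q chains made by macrophages, differed by -0.96, -0.96 and -0.94 between HSC + TBI and TBI rats with adjusted p of 0.145, 0.133 and 0.135, none of them called.

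Among 12 acute phase genes outside the module, 3 rose in TBI rats: Orm1 (alpha-1-acid glycoprotein) by 1.59, Lbp (lipopolysaccharide-binding protein) by 1.31 and Hamp (hepcidin) by 1.20, with limma adjusted p of 0.0191, 0.0275 and 0.0489. None of the 12 was called in HSC + TBI rats against control or against TBI. Orm1, Lbp and Hamp differed by 1.11, 0.65 and 0.88 in HSC + TBI rats against control (limma adjusted p = 0.0946, 0.249 and 0.162). Between HSC + TBI and TBI rats they differed by -0.47, -0.65 and -0.32. Of 13 liver transcription factors, Cebpb (0.76), Foxa3 (1.13) and Nr1h4 (0.66) rose and Nr0b2 fell by 1.58 in TBI rats against control, and none was called in the other comparisons. In HSC + TBI rats against control, Cebpb, Foxa3, Nr1h4 and Nr0b2 differed by 0.31, 1.01, 0.52 and -0.29. Nr1h4 encodes the bile acid receptor FXR, and Nr0b2 encodes SHP, a repressor whose gene is an FXR target.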

How the data were processed

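Liver RNA of 9 rats in 3 groups was read on 9 one-colour arrays. Per the file headers, the authors obtained spot intensities, a processed signal and quality flags with Agilent Feature Extraction 10.7, and they deposited quantile-normalized log2 values made in GeneSpring. The processed signal (intensity) was used here, with a floor of 1. Its log2 values were quantile-normalized over the arrays and averaged for each probe, without control and outlier spots (84 to 115 of 43379 spots per array). The result differed from the authors' deposited log2 values by a median of 0.03 on every array. A probe was tested if some group had it well above background on its 3 arrays (25369 of 41012 probes). The test was limma 3.58.1 in R 4.3.3, in 1 fit of 3 group means with no covariate, with Benjamini-Hochberg adjustment over all tested probes. A gene was represented by its brightest tested probe, and 9 members had several. Gene names came from RefSeq (GRCr8) by accession. Nothing in the labels ties rats to litters. The p-values rest on the spread between rats within groups, and the number of rats limits the precision. No slide held rats of different groups, so the p-values cannot set a slide effect apart from a group effect. With 3 rats per group no exact two-sided permutation p can go below 0.1. The code was tested on simulated data.

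The members and all lists were chosen with earlier results of these data known, and the kininogen paralogs and fat cell markers were added after values had been seen. Every member is accounted for, and values of each rat are given for called members and for the 10 largest differences of each comparison, with a few others chosen after their values were seen. Of the other lists, called genes and at most 4 more were named. Alternatives were other scalings and background corrections, filters, tests, blocks and each rat left out in turn.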

Additional observations from a re-analysis of the deposited data

Results flagged for a closer look

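In 3 members every rat of one irradiated group lay on one side of the control mean and every rat of the other on the opposite side. F3 differed by 0.76 between HSC + TBI and TBI rats, from -0.61 in TBI and 0.14 in HSC + TBI rats against control (limma adjusted p of the difference 0.236). C1s differed by -0.39, from 0.18 and -0.21 (adjusted p = 0.284). C6 differed by -0.96, from 0.51 and -0.45 (adjusted p = 0.120). The value of F3 was 0.42 to 1.04 with a rat left out, lowest without TBI 2, and 0.32 with normexp background correction. None of the 3 differences between the irradiated groups was called by limma.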

How the results depend on the processing

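Each result was recomputed under other settings, changing one at a time. Of the recomputed log2 fold changes of named members, 614 kept their direction and their side of the threshold, 20 no longer passed, 16 newly passed and 1 turned: C4bpb between HSC + TBI and TBI rats, which was 0.078 with the 75th percentile scaling. For TBI against control, the 3 calls became 4 with the 75th percentile scaling (with C4bpb), 2 with no filter on dim probes (without Cfd), 1 (Kng1) with only the compared groups fitted, 0 with the methods' t-test after Benjamini-Hochberg adjustment, 5 with no minimum fold, and 0 to 3 with a rat left out (1 without control 2, 0 without control 3 or TBI 2). For HSC + TBI against control, 0 calls became 2 with the 75th percentile scaling (Kng1, C4bpb), 1 with the methods' unadjusted t-test (Kng1), 1 with the replicate block (Kng1), 2 with the slide as a random block (Klkb1, Kng1), and 0 to 1 with a rat left out (Klkb1 without control 1). For HSC + TBI against TBI, 0 became 2 with the methods' unadjusted t-test (Cfd, C6), 3 with the slide block (F3, Cfd, C6), and 0 to 1 with a rat left out (C6 without TBI 1). The F-test's 2 members became 1 with no filter on dim probes, 1 with the replicate block, 13 with the slide block and 0 to 4 with a rat left out. The slide block had an estimated correlation of -0.33, and the rats of each group but HSC + TBI shared a slide. Same-numbered rats of different groups did not deviate together (correlations of -0.14 to 0.19), so they share only a number, and the replicate block also took Cfd out of the calls in TBI rats (adjusted p = 0.0697). Median differences of the members with the 75th percentile scaling were 0.033, 0.13 and 0.094 in the 3 comparisons, against -0.02, -0.02 and -0.03, and the median for TBI against control was -0.10 to 0.025 with a rat left out. Among values that were not called, the 75th percentile scaling also gave 0.52 for Serpind1 and -0.09 for C1r in HSC + TBI against control and -0.24 for Kng1 in HSC + TBI against TBI. Plau, a dim gene, gave -0.21 and -0.16 in these comparisons with normexp background correction. A rat left out moved uncalled values of Kng1, Plau, Cfd, C2, C6 and Plg by over 1.5 times as well. Kng1 in HSC + TBI against TBI was -0.25 without TBI 2 and -0.83 without TBI 1, Cfd in HSC + TBI against control was 0.09 without control 3 and 0.52 without control 1, and Plau in HSC + TBI against TBI was -0.15 without TBI 3 and -0.79 without TBI 1. The cause of these changes was not tested.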
